A study of Homo sapiens with 132 samples.

Results

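NCI-N87 cells treated with trastuzumab for 24 h were compared with untreated NCI-N87 cells of the same time point. Membership was set by the sample labels, as the libraries of this line at 24 h with trastuzumab alone (3 replicates) and without treatment (3 replicates), which were 6 of the 132 libraries of the series. Trastuzumab was given at 5 μg/ml. The untreated cells received neither antibody nor inhibitor, so no control antibody was part of the comparison. In the series, MKN1, MKN7, NCI-N87 and Hs746T gastric cancer cells were treated with antibodies or inhibitors against the EGFR family, and mRNA was sequenced after 4 h and 24 h. NCI-N87 is 1 established line from a metastasis of a gastric carcinoma, kept in medium with fetal calf serum, and the study describes it as a trastuzumab responder. For comparison, NCI-N87 cells of 4 h (untreated or with trastuzumab), NCI-N87 cells of 24 h with afatinib (0.5 μM) or with trastuzumab and afatinib together, and MKN7 cells of 24 h (untreated or with trastuzumab) were used, with 3 replicates each. MKN7 is a gastric cancer line that the study describes as a trastuzumab non-responder.

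ERBB2 (HER2) is a receptor tyrosine kinase of the EGFR family that binds no ligand of its own and signals as a partner of EGFR and ERBB3. Its main outputs are the RAS-MAPK cascade, which switches on immediate early genes and its own inhibitors of the DUSP and SPRY families, and the PI3K-AKT pathway, which keeps FOXO transcription factors out of the nucleus. Trastuzumab is an antibody against the extracellular part of ERBB2, whereas afatinib blocks the kinases of EGFR and ERBB2 from within the cell.

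Counts on genes summed to between 38788878 and 51830046 in the 6 libraries. Levels are given as CPM, counts scaled by library size with edgeR's TMM factors. As a floor, 3 counts were 0.0579 CPM in the deepest and 0.0773 CPM in the shallowest library (counting error only). ERBB2, the target of trastuzumab, stood at 15035, 15572 and 13437 CPM in the untreated and at 16259, 15920 and 13139 CPM in the treated libraries (replicates 1, 2 and 3). The groups overlapped, and the log2 fold change (log2FC) was 0.04 (SE 0.073, adjusted p = 0.863 in edgeR). Scaled by library size alone, ERBB2 was between 9903 and 26160 CPM over the 24 NCI-N87 libraries and between 3402 and 7533 CPM in MKN7, and between 74.1 and 196 CPM in MKN1 and Hs746T cells. All 12 epithelial markers passed the filter on low counts, and their summed level was between 19360 and 22990 CPM. The immune markers summed to between 8.37 and 10.2 CPM, most of it LYZ and CD8A. The endothelial markers summed to between 17.8 and 24.9 CPM, most of it ESAM. MS4A1 and KDR had 0 counts in all 6 libraries. The fibroblast and mesenchymal markers summed to between 275 and 320 CPM in the untreated and between 227 and 288 CPM in the treated libraries, most of it FN1, while THY1 had 0 counts. In such bulk samples, fewer cells of a kind and less RNA per cell cannot be told apart.

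After 24 h of trastuzumab, 4 genes fell and 4 rose among 19078 genes tested, which is 0.0419% of them (0.0210% in each direction). The fallen genes were HAS2, WNT9A, SEMA3C and DUSP4, and the risen ones BMF, FGD3, MS4A8 and LINC00486. A gene was called at a Benjamini-Hochberg adjusted p below 0.05 in edgeR's quasi-likelihood test, with the replicate number as a block, because same-numbered libraries deviated together. Without the block 0 genes were called, with 786 genes at an unadjusted p below 0.05. With the block, 2631 genes were at an unadjusted p below 0.05 (13.8%; 954 expected by chance), of which 961 were higher (5.04%) and 1670 lower (8.75%). The median log2FC of all genes was -0.01. Of the called genes, MS4A8 and LINC00486 also passed the limit of an absolute log2FC above 1 that the study used (0.0105% of genes). Both rest on little, and the study itself reports no gene that met its criteria after trastuzumab. In NCI-N87 cells with trastuzumab it also saw no altered phosphorylation of the kinases it measured and no significant change in motility. Those are measures other than RNA, taken over less than 24 h. Without replicate 3, 0 genes were called, and without replicate 2 only LINC00486.

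HAS2, which makes the extracellular polysaccharide hyaluronan, stood at 15.5, 15.4 and 16.5 CPM without treatment and at 8.04, 8.53 and 8.46 CPM with trastuzumab. All treated libraries lay below all untreated ones, as in 4.21% of all genes tested (3.79% had all treated libraries above, 8.01% either way). The log2FC was -0.92 (SE 0.126, adjusted p = 0.0049). HAS2 (ENSG00000170961) lies on chromosome 8 of GRCh38 from 121612116 to 121641390.

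WNT9A, a secreted Wnt ligand (ENSG00000143816, chromosome 1 from 227918656 to 227947898), had 57.9, 66.0 and 49.6 CPM in the untreated and 42.1, 47.4 and 38.9 CPM in the treated libraries. It was lower in each of the 3 pairs and the groups did not overlap (log2FC -0.43, SE 0.061, adjusted p = 0.0049). SEMA3C, a secreted semaphorin that guides axons and migrating cells (ENSG00000075223, chromosome 7 from 80742538 to 80922359), had 49.1, 46.6 and 49.0 CPM against 38.0, 38.6 and 37.5 CPM with trastuzumab. All treated libraries lay below all untreated ones (log2FC -0.34, SE 0.058, adjusted p = 0.028). DUSP4, a phosphatase that inactivates MAP kinases in the nucleus and is itself switched on by MAPK signaling (ENSG00000120875, chromosome 8 from 29333064 to 29350668), had 20.1, 17.4 and 12.01 CPM against 13.9, 12.6 and 8.003 CPM. Its groups overlapped, but it was lower with trastuzumab in each pair (log2FC -0.52, SE 0.096, adjusted p = 0.049).

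BMF encodes a pro-apoptotic BH3-only protein of the BCL2 family and is a known FOXO target (ENSG00000104081, chromosome 15 from 40087890 to 40108892). It had 4.46, 4.40 and 3.55 CPM without treatment and 7.41, 7.30 and 5.88 CPM with trastuzumab. It was higher in each pair, and the groups did not overlap (log2FC 0.73, SE 0.107, adjusted p = 0.0067). BMF came closest to a call without the block, with an adjusted p of 0.0741. FGD3, a guanine nucleotide exchange factor for CDC42 (ENSG00000127084, chromosome 9 from 92947451 to 93036236), had 45.1, 42.0 and 49.1 CPM against 63.0, 56.3 and 60.3 CPM (log2FC 0.40, SE 0.073, adjusted p = 0.049). The lowest treated library was above the highest untreated one.

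The remaining 2 calls were of another kind. MS4A8, a membrane protein of the MS4A family, was near the smallest level that can be shown, at 0.1004, 0.0654 and 0.115 CPM without and 0.735, 0.156 and 0.323 CPM with trastuzumab (log2FC 2.06, SE 0.371, adjusted p = 0.049). The long non-coding RNA LINC00486 had 0.261, 0.349 and 0.229 CPM in the untreated and 0.0788, 0.312 and 79.4 CPM in the treated libraries. Its call rested on replicate 3, in which the treated library was high and the untreated one low, and the log2FC went from 6.11 (adjusted p = 0.0117) to -0.57 without that replicate. In NCI-N87 cells, LINC00486 was between 41.4 and 219 CPM in 7 libraries of replicate 3 and at most 6.59 CPM in the 16 libraries of replicates 1 and 2. In this gene, the library that stood apart from the others of its number was thus the untreated one of 24 h, at 0.229 CPM. Across genes, its deviations from the group mean correlated with those of the same-numbered 24 h libraries. Pearson's r was 0.308 with trastuzumab, 0.288 with afatinib and 0.247 with both drugs. Whether this library was handled apart from them was not tested. Untreated MKN7 cells of 24 h, replicate 3, had 262 CPM.

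**Figure D1:**
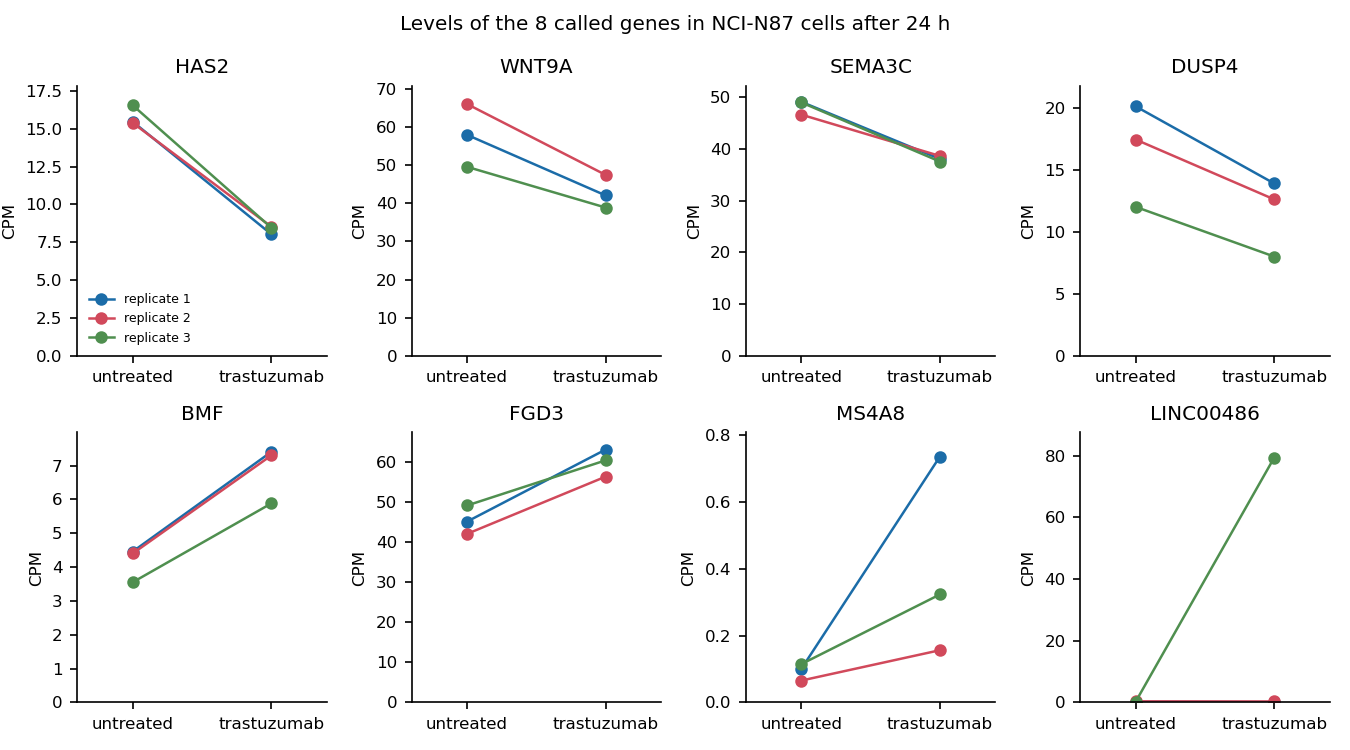
Levels of the 8 called genes in CPM (vertical axes, from 0) in untreated and trastuzumab-treated NCI-N87 cells after 24 h, with a point for each library and a line joining libraries of the same replicate number. HAS2, WNT9A, SEMA3C and DUSP4 fell in all 3 pairs and BMF and FGD3 rose in all 3, whereas LINC00486 was high in a single library, at 79.4 CPM.

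Another 19 genes had an adjusted p between 0.05 and 0.1 (0.142% of all genes were below 0.1, calls included). Of these, 12 were lower and 7 higher, each in the same direction in all 3 pairs (21.4% of all genes were lower and 17% higher in all pairs). The 19 genes were chosen by a test that pairs these libraries, so their shared direction over the pairs is no further evidence. They were 0.25 to 1.00 apart from the untreated cells on the log2 scale and are named here after their values were seen, as those next in line. Among the lower ones were the neurotensin receptor NTSR1 (log2FC -0.76), the ecto-5'-nucleotidase NT5E (-0.46), the EGFR ligand EREG (-0.48), the focal adhesion protein TNS4 (-0.56), the gastric mucin MUC5AC (-0.52), the MAPK inhibitor SPRY4 (-0.49) and EGFR (-0.33). Among the higher ones were the neurotrophin NTF4 (0.52), the PI3K inhibitor PIK3IP1 (0.58) and the alkaline phosphatase ALPG (0.68). None of these 19 passed the test in edgeR, and they carry adjusted p-values from 0.0535 to 0.0925. An alternative test, DESeq2 with the same block, called 156 genes (74 higher, 82 lower), 6 of which were among the 8 of edgeR.

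**Figure D2:**
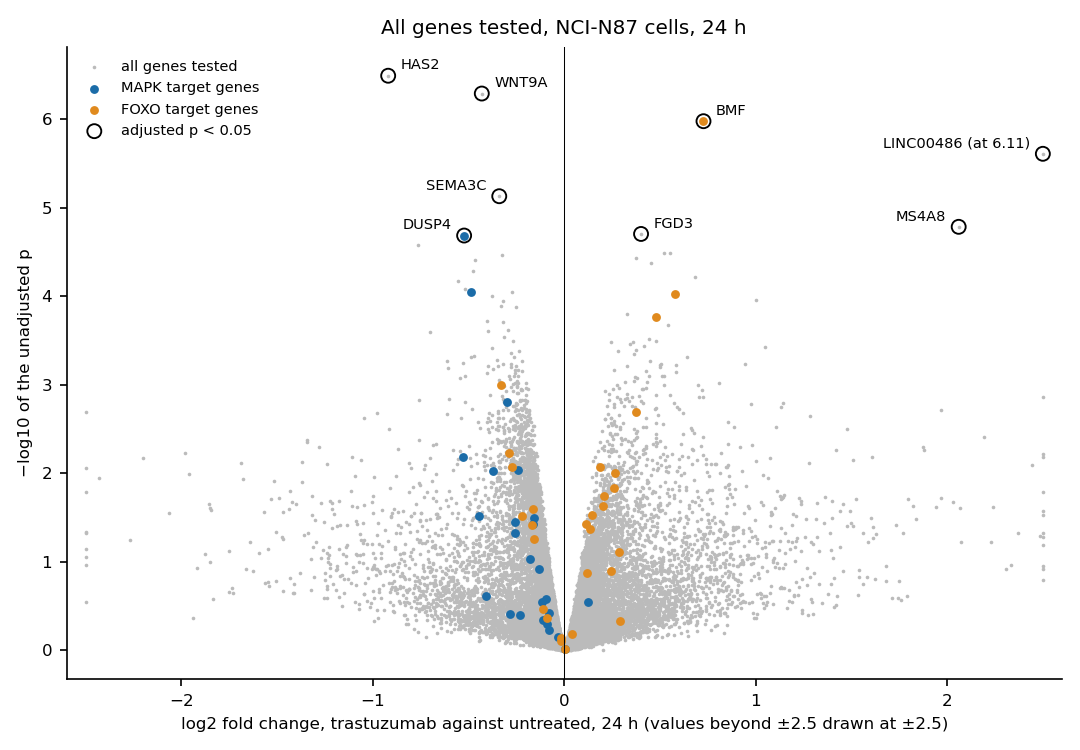
Log2FC of trastuzumab-treated against untreated NCI-N87 cells after 24 h (horizontal) and -log10 of the unadjusted p (vertical) for the 19078 genes tested, with members of the MAPK and FOXO target lists in colour and called genes ringed. Of the 25 MAPK target genes tested, 11 were lower and 0 higher at an unadjusted p below 0.05 in edgeR. Of the 29 FOXO target genes tested, 12 were higher and 6 lower. Among all genes, 8.75% were lower and 5.04% higher. Without the replicate block, 5 MAPK target genes were lower and 5 FOXO target genes higher. In that setting 786 genes passed in both directions together, against 2631 with the block. The lists were chosen with earlier results of these data known.

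Of the receptors, EGFR had 206, 206 and 191 CPM in the untreated and 165, 169 and 145 CPM in the treated libraries. The groups did not overlap. EGFR was not called in edgeR (log2FC -0.33, SE 0.071, adjusted p = 0.0925), whereas DESeq2 with the same block called it lower (log2FC -0.32, adjusted p = 0.0129). ERBB3, a partner of ERBB2 with little kinase activity and a known FOXO target, had 101, 89.9 and 76.5 CPM against 109, 108 and 86.8 CPM (log2FC 0.18, SE 0.063, adjusted p = 0.23). It was higher in each pair, with overlapping groups. ERBB4 was between 0.137 and 0.414 CPM in all 6 libraries (log2FC -0.74, adjusted p = 0.693).

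All 11 genes of EGFR ligands and neuregulins passed the filter, and 0 were called. At an unadjusted p below 0.05, 4 were lower (8.75% of all genes were) and 1 was higher. The lower ones were the ligands EREG, AREG, HBEGF and TGFA. In each of them all treated libraries lay below all untreated ones, as in 4.21% of all genes. In 1 of the 11 genes all treated libraries lay above (3.79% of all genes). AREG had 17.3, 18.02 and 15.4 CPM in the untreated and 10.4, 12.4 and 13.5 CPM in the treated libraries (log2FC -0.49, adjusted p = 0.169). EREG had 39.7, 42.7 and 41.0 CPM against 26.5, 30.8 and 31.3 CPM (log2FC -0.48, adjusted p = 0.0614). HBEGF (log2FC -0.36) and TGFA (-0.14) were closer to the untreated cells. The higher one, EPGN, stayed under 0.5 CPM in all 6 libraries. Of the 10 genes that restrain the receptors, 0 were called. ERRFI1, an inhibitor that binds EGFR and ERBB2 kinase domains, had 45.9, 45.6 and 44.2 CPM against 35.3, 38.7 and 35.1 CPM (log2FC -0.31, adjusted p = 0.222).

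The list of MAPK target genes held 29 genes, of which 25 were tested (ETV4, EGR3, FOSB and JUNB were not). Like the other lists, it was chosen with earlier results of these data known, so its counts are no independent evidence. DUSP4 was called, lower. At an unadjusted p below 0.05, 11 of the 25 were lower and 0 higher (8.75% and 5.04% of all genes), and 14 passed in neither direction. In all 3 pairs, 20 were lower and 1 was higher, where 21.4% and 17% of all genes were. The median log2FC of the list was -0.18. Without the block 5 members were lower at an unadjusted p below 0.05, and without replicate 3 it was 5 as well. In both directions together, 786 genes reached that p without the block and 919 without replicate 3, against 2631 in the main fit. The shares above thus do not apply to these settings. SPRY4, an inhibitor of RAS-MAPK signaling, had 22.3, 31.9 and 27.1 CPM in the untreated and 17.9, 23.3 and 16.7 CPM in the treated libraries (log2FC -0.49, SE 0.101, adjusted p = 0.0806). DUSP6, the cytoplasmic phosphatase of ERK, had 33.1, 62.8 and 44.5 CPM against 22.6, 47.8 and 27.9 CPM (log2FC -0.53, SE 0.174, adjusted p = 0.23). The replicates of DUSP6 differed more than the groups did, and it was lower in each pair. FOSL1, an AP-1 subunit, had 81.8, 91.6 and 95.0 CPM against 61.9, 66.6 and 79.7 CPM, without overlap (log2FC -0.37, adjusted p = 0.234). The immediate early factor EGR1 had 135, 377 and 170 CPM against 100, 328 and 103 CPM (log2FC -0.41, SE 0.339, adjusted p = 0.634). For CCND1, the D-type cyclin of the G1 phase, the log2FC was -0.13 (adjusted p = 0.489), and for MYC it was -0.08 (adjusted p = 0.738).

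Of the 30 FOXO target genes 29 were tested, and BMF was called. At an unadjusted p below 0.05, 12 were higher (5.04% of all genes were) and 6 lower (8.75% of all genes), and the median log2FC was 0.12. Without the block 5 were higher, and without replicate 3 it was 7. The shares of all genes above are those of the main fit. Fewer genes passed in these settings (786 and 919 in both directions together, against 2631). PIK3IP1 had 9.82, 6.84 and 6.07 CPM in the untreated and 15.3, 10.1 and 8.79 CPM in the treated libraries (log2FC 0.58, SE 0.121, adjusted p = 0.0824). TNFSF10, the death ligand TRAIL, had 13.3, 9.20 and 7.06 CPM against 17.3, 12.8 and 10.96 CPM (log2FC 0.48, adjusted p = 0.113). Both were higher in each pair, with overlapping groups. BBC3, the BH3-only protein PUMA, had 6.39, 5.95 and 6.69 CPM against 9.30, 6.89 and 8.60 CPM (log2FC 0.37, adjusted p = 0.192). The lower members included KLF6 (log2FC -0.33) and the FOXO genes FOXO1 (-0.22) and FOXO3 (-0.27) themselves, with adjusted p-values of at least 0.181. CDKN1B, the CDK inhibitor p27, had 78.9, 76.3 and 68.4 CPM against 82.9, 80.1 and 82.2 CPM, without overlap (log2FC 0.13, adjusted p = 0.344). IRS2, an adaptor of the insulin receptor, was under 0.6 CPM in all 6 libraries (log2FC 0.29, adjusted p = 0.791).

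Of the 14 genes that the study links to motility 13 were tested (not SEMA6D), and HAS2 was called, lower. The study chose this list on other libraries of this series, from MKN1 cells after 4 h of afatinib with and without trastuzumab. It was taken up here with earlier results of these data known, so its direction is no independent evidence. At an unadjusted p below 0.05, 5 were lower (HAS2, ITGA2, F3, CXCL8 and HBEGF) and 0 higher, beside 8.75% and 5.04% of all genes. F3, the initiator of blood clotting, had 111, 108 and 104 CPM against 87.4, 83.0 and 84.8 CPM (log2FC -0.34, adjusted p = 0.18). The cytokine CXCL8 had 10.1, 8.11 and 4.10 CPM against 7.09, 5.09 and 2.65 CPM (log2FC -0.60, adjusted p = 0.19). Of 14 integrin and tensin genes tested 8 were lower and 0 higher at the same threshold. Among them TNS4 had 392, 396 and 376 CPM against 279, 270 and 246 CPM (log2FC -0.56, SE 0.112, adjusted p = 0.0712). The laminin receptor subunit ITGA6 had 218, 205 and 186 CPM against 180, 175 and 136 CPM (log2FC -0.32), and the collagen receptor subunit ITGA2 had 187, 208 and 174 CPM against 144, 146 and 149 CPM (log2FC -0.37). Of 19 YAP target genes 7 were lower and 1 was higher at that threshold. NT5E, F3 and TGFB2 were among the lower ones, and F3 is shared with the motility list.

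Genes of growth and division were called in no list. Of 43 genes of ribosome biogenesis 13 were lower and 0 higher at an unadjusted p below 0.05 (median log2FC -0.08), beside 8.75% and 5.04% of all genes. Of 52 genes of S phase and replication 7 were lower and 0 higher (median -0.04), and of 49 genes of the G2/M phase 10 and 0 (median -0.02). The 69 cytosolic ribosomal protein genes were at an unadjusted p below 0.05 in 0 cases, with a median of 0.11. Of 39 interferon-stimulated genes 5 were higher (5.04% of all genes) and 0 lower, at a median of 0.13, and 23 were higher in all 3 pairs (17% of all genes). STAT2 was the one with the smallest p, with 53.5, 53.7 and 38.3 CPM against 64.9, 59.7 and 50.3 CPM (log2FC 0.27, adjusted p = 0.20).

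**Figure D3:**
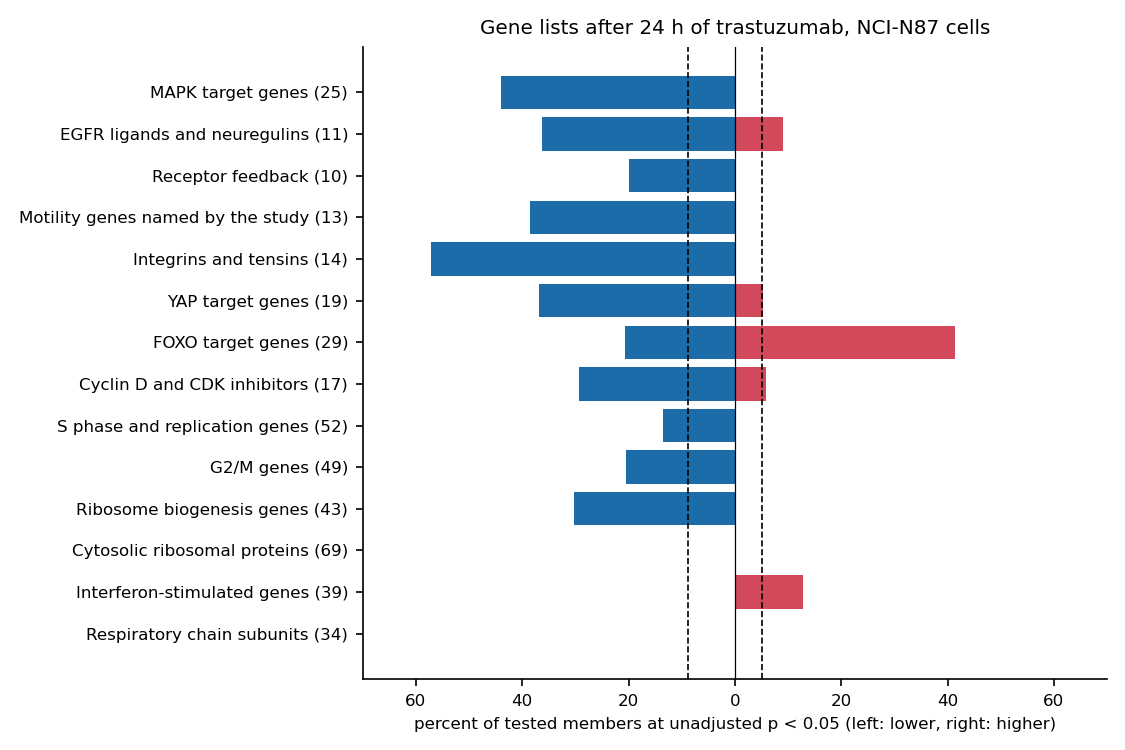
Percent of the tested members of 14 gene lists (number tested in parentheses) that were lower (left) or higher (right) at an unadjusted p below 0.05 after 24 h of trastuzumab in NCI-N87 cells. Dashed lines mark the same for all genes, at 8.75% lower and 5.04% higher. The lists share some genes and were chosen with earlier results of these data known. Bars of the integrins and tensins and of the MAPK target genes reach farthest to the left (8 of 14 and 11 of 25) and those of the FOXO target genes farthest to the right (12 of 29).

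The 4 h libraries have untreated cells of their own, so that the 2 time points share no library. After 4 h, 1 gene was called (0.00524%). It was SHB, an adaptor protein of receptor tyrosine kinases, with 15.04, 19.9 and 16.7 CPM in the untreated and 29.3, 23.5 and 26.3 CPM in the treated libraries (log2FC 0.62, adjusted p = 0.0167). After 24 h its log2FC was -0.12. The difference between the log2FC at 24 h and at 4 h was tested as an interaction contrast, and 70 genes were called (0.367%), 62 lower (0.325%) and 8 higher (0.0419%) at 24 h than at 4 h. All 62 were above the untreated cells at 4 h and below them at 24 h, with medians of 0.29 and -0.27 on the log2 scale. At an unadjusted p below 0.05, 59 of them were higher at 4 h, 57 lower at 24 h and 54 both. These medians and counts describe genes that were chosen by the same difference. The 8 higher ones were below at 4 h and above at 24 h, LINC00486 included. Without the block 0 genes were called in this contrast, and with a block shared by both time points 12, all of them among the 70. With library size alone as scaling there were 21, without replicate 2 it was 11 and without replicate 3 it was 0. The treated 4 h library of replicate 1 had the smallest TMM factor of the NCI-N87 libraries (0.887), and without replicate 1 there were 62 called genes, 27 of which were among the 70.

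Of the genes called at 24 h, HAS2, WNT9A, DUSP4, BMF, FGD3 and LINC00486 were called here too. DUSP4 had 18.3, 17.7 and 15.7 CPM in the untreated and 26.4, 19.7 and 22.8 CPM in the treated cells at 4 h, higher without overlap. Its log2FC was 0.41 at 4 h, and the difference between the times was -0.93 (SE 0.133, adjusted p = 0.0061). HAS2 had 12.6, 17.1 and 8.02 CPM against 15.3, 15.9 and 12.2 CPM at 4 h (difference between the times -1.16, SE 0.175, adjusted p = 0.0076). At 4 h its groups overlapped and the treated library of replicate 2 was the lower one of its pair. TNS4 had 354, 337 and 266 CPM against 486, 381 and 446 CPM at 4 h (difference -1.03, SE 0.159, adjusted p = 0.0076). WNT9A (difference -0.63, adjusted p = 0.0046) and the actin-oxidizing enzyme MICAL2 (-0.58, adjusted p = 0.0076) completed the 5 lower genes with the smallest p. Of the higher ones with a mean log2 CPM above 1, BMF had 2.72, 2.80 and 3.55 CPM against 2.49, 2.81 and 2.46 CPM at 4 h (difference 0.93, SE 0.165, adjusted p = 0.0152). CYP1A1, a monooxygenase induced by aryl hydrocarbons, differed by 0.84 (adjusted p = 0.0305), RBBP8NL by 0.62 (adjusted p = 0.0371), the antisense gene AP003119.1 by 0.89 (adjusted p = 0.048) and the hepatic lipase LIPC by 0.60 (adjusted p = 0.0488).

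Other genes called as lower belong to the lists above, and are named after their values were seen. The EGFR ligands AREG (4 h log2FC 0.48, 24 h -0.49), EREG (0.31 and -0.48) and TGFA (0.20 and -0.14), the receptor EGFR itself (0.21 and -0.33) and its inhibitor ERRFI1 (0.32 and -0.31) were called. So were the MAPK target genes SPRY4 (0.35 and -0.49) and EPHA4 (0.27 and -0.30), the integrins ITGA2 (0.39 and -0.37) and ITGA3 (0.20 and -0.20), and F3 (0.43 and -0.34) and CXCL8 (0.52 and -0.60). AREG had 23.3, 36.0 and 24.3 CPM in the untreated and 34.9, 40.9 and 40.1 CPM in the treated cells at 4 h, higher in each pair. Over the 25 MAPK target genes, 12 were higher and 0 lower at 4 h at an unadjusted p below 0.05 (4.51% and 3.41% of all genes), with a median log2FC of 0.20. In the contrast 24 h minus 4 h, 15 of the 25 were lower and 0 higher at an unadjusted p below 0.05 (5.51% and 4.00% of all genes). Without replicate 3, 8 were lower, and the share of all genes in that setting was not counted.

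**Figure D4:**
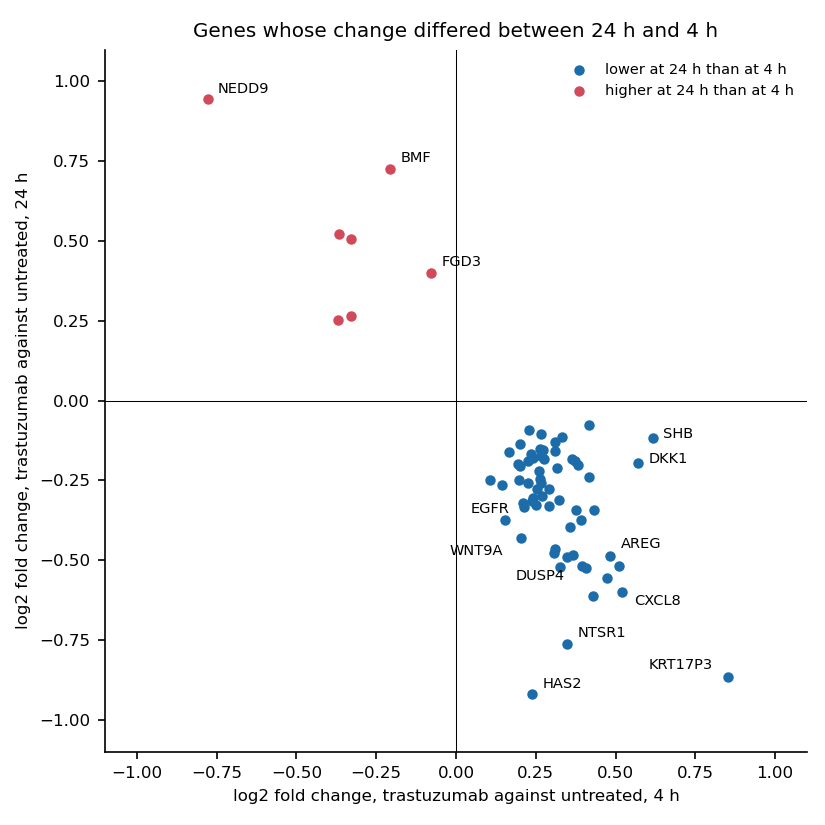
Log2FC of trastuzumab-treated against untreated NCI-N87 cells at 4 h (horizontal) and at 24 h (vertical) for 69 of the 70 genes called in the contrast 24 h minus 4 h, with LINC00486 left out. The 62 lower genes lie to the right of 0 at 4 h and below 0 at 24 h, HAS2 at 0.24 and -0.92. The genes were chosen by this difference.

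The promoters of the 62 genes called lower in the contrast 24 h minus 4 h were looked at next. Their shared direction was set by that choice and is no result. RefSeq promoters (GRCh38.p14, 250 bases before to 50 after the start) were found by symbol for 49 of the 62 lower genes. They were searched on both strands for TGACTCA (AP-1), GTAAACA (FOXO), CACGTG (E-box), GCGTGGGCG (EGR) and TTTCCCGC (E2F), and for the SREBF and interferon response motifs. The AP-1 letters were in 8 of the 49 (16.3%), against 4.92% of the 27305 promoters in the table and 3.52% of those of 11719 genes tested. The E-box was in 4 (8.16%, against 7.43% of all promoters and 9.52% of those of tested genes), and the FOXO and interferon response motifs in 1 each. The SREBF, EGR and E2F motifs were in 0. Among the genes called at 24 h alone, the AP-1 letters were in 1 of the 4 promoters of risen genes, that of LINC00486, and in 0 of 2 of fallen genes. The 4 windows below are promoters with the AP-1 letters, of genes with known roles, and the one of BMF follows as the promoter of the risen gene with the smallest p, in which none of the 7 motifs was found. Each holds the 250 bases before the start, 5' to 3' on the strand of the gene, and capitals mark the AP-1 letters or their reverse complement. A match is a description and not a binding site.
CXCL8 promoter, chr4:73740319-73740568, forward strand: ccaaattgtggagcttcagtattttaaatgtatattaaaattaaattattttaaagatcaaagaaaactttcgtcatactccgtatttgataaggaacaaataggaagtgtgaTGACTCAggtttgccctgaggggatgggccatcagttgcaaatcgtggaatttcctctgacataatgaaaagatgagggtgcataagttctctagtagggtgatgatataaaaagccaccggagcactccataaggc
F3 promoter, chr1:94541760-94542009, reverse strand: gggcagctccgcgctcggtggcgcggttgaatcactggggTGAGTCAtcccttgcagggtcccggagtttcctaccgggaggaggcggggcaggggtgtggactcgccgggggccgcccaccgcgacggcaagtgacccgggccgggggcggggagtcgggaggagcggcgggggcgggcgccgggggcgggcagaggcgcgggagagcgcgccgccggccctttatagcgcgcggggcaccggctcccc
MAP2K3 promoter, chr17:21284461-21284710, forward strand: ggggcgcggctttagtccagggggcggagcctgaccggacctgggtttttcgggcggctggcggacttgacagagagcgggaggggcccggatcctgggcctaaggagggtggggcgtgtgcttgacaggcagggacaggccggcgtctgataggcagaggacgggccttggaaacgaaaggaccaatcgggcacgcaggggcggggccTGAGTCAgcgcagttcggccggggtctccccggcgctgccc
HRH1 promoter, chr3:11136988-11137237, forward strand: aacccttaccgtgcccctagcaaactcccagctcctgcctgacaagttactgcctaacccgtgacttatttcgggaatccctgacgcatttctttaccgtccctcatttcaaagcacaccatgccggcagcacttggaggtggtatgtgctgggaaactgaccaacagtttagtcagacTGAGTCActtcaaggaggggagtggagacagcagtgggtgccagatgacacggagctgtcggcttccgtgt
BMF promoter, chr15:40108880-40109129, reverse strand: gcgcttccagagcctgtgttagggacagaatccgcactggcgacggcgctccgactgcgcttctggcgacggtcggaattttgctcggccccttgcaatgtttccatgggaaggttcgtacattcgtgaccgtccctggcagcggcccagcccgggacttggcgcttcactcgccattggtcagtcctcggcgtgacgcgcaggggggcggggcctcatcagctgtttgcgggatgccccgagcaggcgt

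MAP2K3, a kinase that activates p38, and HRH1, the histamine receptor, were called lower in the contrast 24 h minus 4 h together with CXCL8 and F3. MAP2K3 had 80.9, 84.9 and 93.9 CPM in the untreated and 72.3, 72.9 and 73.3 CPM in the treated cells at 24 h, against 81.6, 90.7 and 80.2 CPM and 111, 93.8 and 98.4 CPM at 4 h. Each treated library was thus above its pair at 4 h and below it at 24 h. HRH1 had 71.7, 72.5 and 67.5 CPM against 63.1, 63.9 and 57.4 CPM at 24 h. At 4 h it had 71.6, 74.5 and 63.9 CPM against 85.3, 79.6 and 75.4 CPM.

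To see what trastuzumab does when the kinases are blocked, cells with trastuzumab and afatinib were compared with cells with afatinib alone at 24 h, which are 6 libraries apart from the main comparison. In edgeR 0 genes were called and 652 were at an unadjusted p below 0.05 (3.42%; 954 expected by chance), and DESeq2 called 0 as well. Of the 25 MAPK target genes 0 were higher and 0 lower at an unadjusted p below 0.05 (1.88% and 1.54% of all genes), with a median log2FC of -0.01. Afatinib alone had already lowered 21 of the 25 and raised 2 at an adjusted p below 0.05 in edgeR (median log2FC -2.18 against untreated cells). A further fall would be harder to see from such levels. HAS2 stood at 0.319, 0.287 and 0.210 CPM with afatinib and at 0.295, 0.360 and 0.257 CPM with both drugs. BMF stood at 99.4, 98.7 and 103 CPM with afatinib and at 97.9, 98.0 and 89.7 CPM with both. DUSP4 stood at 1.63, 1.01 and 0.841 CPM with afatinib and at 1.65, 1.06 and 0.989 CPM with both. For HAS2 and DUSP4 the groups overlapped, and for BMF both drugs lay just below afatinib (log2FC -0.08, unadjusted p = 0.322 in edgeR). The difference between the effect of trastuzumab alone and its effect on top of afatinib passed the test for 0 genes in edgeR (1686 at an unadjusted p below 0.05, 8.84%), whereas DESeq2 called 4. It was 0.81 for BMF (SE 0.13, adjusted p = 0.094), -0.48 for WNT9A (SE 0.09, adjusted p = 0.12) and -0.62 for DUSP4 (SE 0.19, adjusted p = 0.556) on the log2 scale. Of the 25 MAPK target genes 4 were lower and 0 higher in this difference at an unadjusted p below 0.05 (5.24% and 3.60% of all genes). The lack of calls on top of afatinib does not show that the effects differ.

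Afatinib alone for 24 h shares the untreated libraries with trastuzumab alone, and its values are given beside them without a comparison. Against untreated cells, the log2FC after trastuzumab and after afatinib was -0.92 and -5.84 for HAS2, -0.43 and -0.38 for WNT9A, -0.52 and -3.84 for DUSP4, 0.73 and 4.60 for BMF and 0.40 and 2.36 for FGD3. SEMA3C was -0.34 after trastuzumab and 0.40 after afatinib. The median of the MAPK target genes was -0.18 and -2.18, and that of the FOXO target genes 0.12 and 0.76. Afatinib called 13752 genes (72.1%), 6923 higher (36.3%) and 6829 lower (35.8%), and of the 25 MAPK target genes 2 higher and 21 lower.

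In MKN7 cells, 24 h of trastuzumab called 0 of 20205 genes in edgeR, with 2218 at an unadjusted p below 0.05 (11%), while DESeq2 called 172. Without replicate 3 edgeR called 279. BMF had 4.43, 4.97 and 3.92 CPM in untreated and 4.45, 4.89 and 4.00 CPM in treated MKN7 cells, and DUSP4 had 178, 177 and 205 CPM against 177, 192 and 194 CPM. In both genes the groups overlapped. FGD3 had 81.8, 92.7 and 43.8 CPM against 103, 108 and 60.8 CPM, higher in each pair (log2FC 0.33). WNT9A had 17.7, 13.7 and 12.9 CPM against 18.1, 17.4 and 14.2 CPM, and SEMA3C had 77.0, 79.3 and 82.1 CPM against 71.5, 76.6 and 85.3 CPM, both with overlapping groups. HAS2 was under 0.2 CPM in all 6 libraries, and MS4A8 had 0 CPM in 5 of them. LINC00486 had 0.105, 0.350 and 262 CPM against 0.138, 3.36 and 56.7 CPM, so that both libraries of replicate 3 were the high ones. The difference between the lines was called for 0 genes in edgeR (1158 at an unadjusted p below 0.05, 5.73%) and for 20 in DESeq2. It was -0.52 for DUSP4 (SE 0.09, adjusted p = 0.0776), 0.73 for BMF (SE 0.15, adjusted p = 0.128), -0.60 for WNT9A (SE 0.11, adjusted p = 0.128) -0.30 for SEMA3C (SE 0.076, adjusted p = 0.429) and 0.08 for FGD3 (SE 0.12, adjusted p = 0.961).

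The MAPK target genes of MKN7 cells were counted in the same way. At an unadjusted p below 0.05, 12 of the 25 were lower and 1 was higher (5.11% and 5.86% of all genes), with a median log2FC of -0.21. In the difference between the lines 2 were higher and 3 lower in NCI-N87 cells (2.35% and 3.38% of all genes), at a median of 0.07. DUSP6 was -0.53 in NCI-N87 and -0.74 in MKN7 cells, SPRY4 was -0.49 and -0.66, and DUSP4 was -0.52 and 0.01. EPHA4 was -0.30 in NCI-N87 and 0.23 in MKN7 cells.

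**Figure D5:**
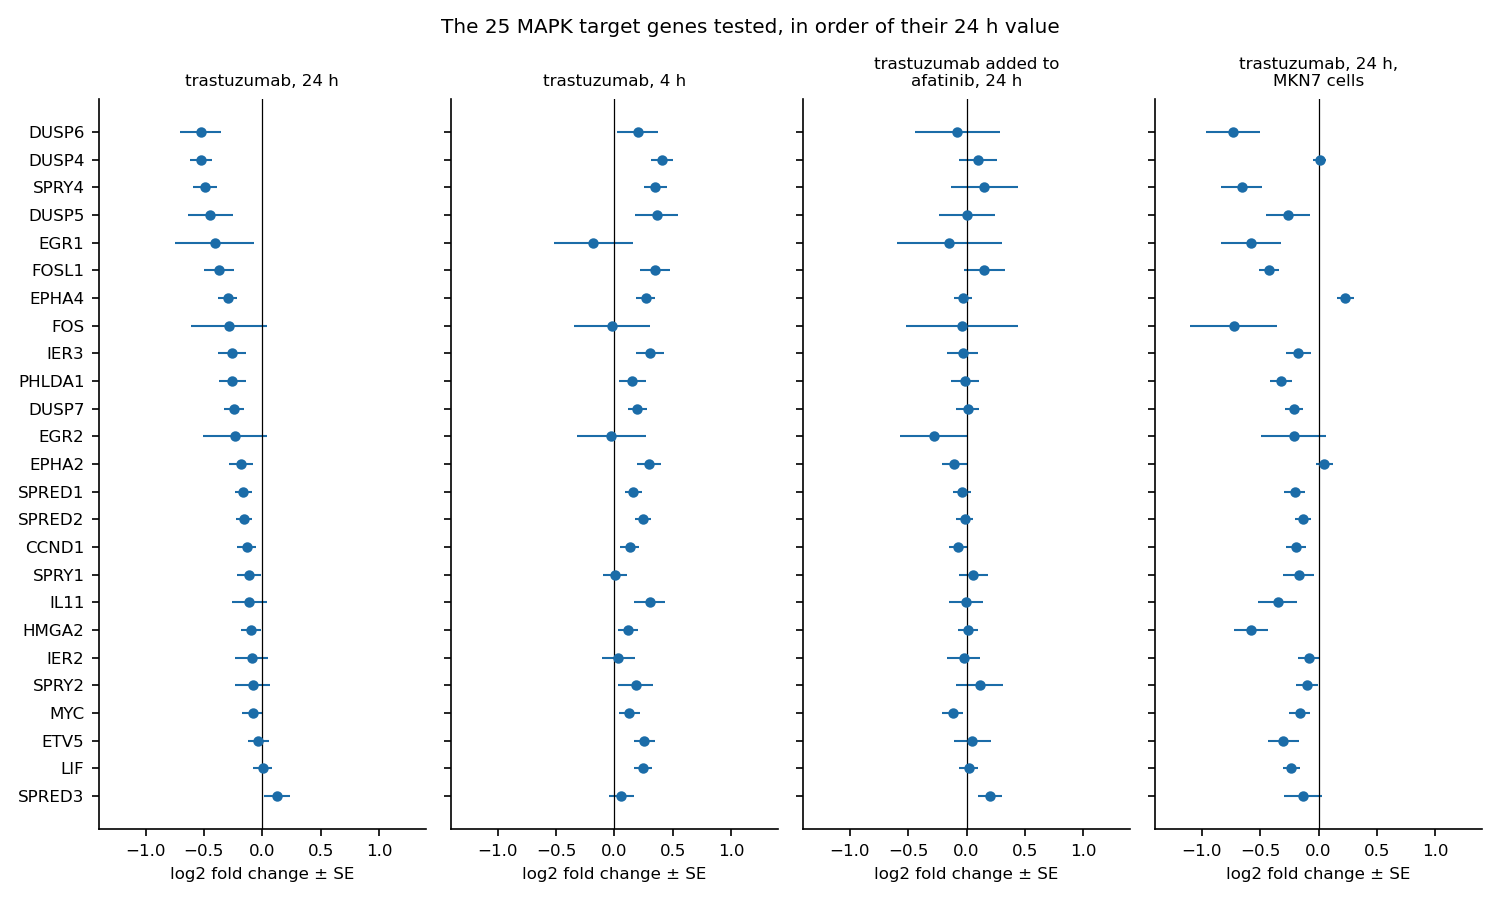
Log2FC with its SE (horizontal) of the 25 MAPK target genes tested, in order of their value at 24 h, for trastuzumab against untreated NCI-N87 cells at 24 h and at 4 h, for trastuzumab added to afatinib in NCI-N87 cells and for trastuzumab in MKN7 cells at 24 h. The medians are -0.18, 0.20, -0.01 and -0.21.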

How the data were processed

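Per the labels, the authors trimmed the reads with Trim Galore and aligned them with STAR to hg38. The counter and the annotation are not given in the sources used here. The authors deposited raw counts per Ensembl gene for each library. Symbols and positions were taken from GENCODE 29. In R 4.3.3 with edgeR 4.0.16, the 24 NCI-N87 libraries were fitted together (TMM, filterByExpr at 10 counts and 15 in total, glmQLFit, glmQLFTest, Benjamini-Hochberg over all genes tested), with a mean for each condition and the replicate number within each time point as a block. The difference between cell lines was fitted on the 24 libraries of 24 h of NCI-N87 and MKN7. DESeq2 1.42.0 was an alternative.

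Same-numbered untreated and trastuzumab libraries of 24 h deviated together from their group means (Pearson's r across genes 0.193 to 0.438 in 3 pairs, 0.155 to 0.538 in 36 pairs of this line), so the numbers pair the samples. Same-numbered libraries of 1 treatment also deviated together across 4 h and 24 h (r 0.142 to 0.422). A block shared by both time points, given below as an alternative, is therefore possible too. The series describes its replicates as biological. Squared differences between replicates were at least 19.2 times the Poisson expectation, so no replicates were taken as repeats of the same library.

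The comparison and the 39 gene lists were chosen with earlier results of these data known. Named genes were the 4 receptor genes, at most 12 called genes in each direction with a mean log2 CPM above 1 and the same direction in all 3 pairs, called genes past the limit, at most 4 called members of a list, DUSP6, SPRY4, EGR1, CCND1, MYC, CDKN1B and IRS2, and at most 5 genes in each direction of an interaction contrast. Others are said to be named after their values were seen, list members as those with small p-values. Simulated data for this comparison held 18906 genes. Called were 69.7% of 99 genes changed by 0.5 on the log2 scale and 65.7% of 99 changed by 1. Another 10 genes made without a change were called too. The simulation was given 200 changed genes, and more were called in it than the 8 of the real comparison. A larger unadjusted p then passes the adjustment, so these shares can overstate what the real comparison recovers. Figures were drawn with matplotlib 3.10.9.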

Additional observations from a re-analysis of the deposited data

Results flagged for a closer look

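A test of the difference between the response at 24 h and at 4 h called 70 genes in NCI-N87 cells (edgeR, adjusted p below 0.05). The log2FC at 24 h minus that at 4 h was -0.63 for WNT9A, -0.93 for DUSP4, -0.58 for MICAL2, -1.16 for HAS2 and -1.03 for TNS4. It was 0.93 for BMF, 0.84 for CYP1A1, 0.62 for RBBP8NL, 0.89 for AP003119.1 and 0.60 for LIPC. Groups of 3 libraries are too small for a search for single deviating libraries.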

How the results depend on the processing

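Without the replicate block, 0 genes were called at 24 h (0 higher, 0 lower, 0 past the fold limit), 0 at 4 h and 0 in the contrast 24 h minus 4 h, 786 genes were at an unadjusted p below 0.05, and 5 MAPK target genes (8 in the contrast) and 5 FOXO target genes. With 1 block for both time points, an alternative chosen for the contrast after seeing the data, 4 were called at 24 h (2 higher, 2 lower, 1 past the limit) and 12 in the contrast. Leaving out each replicate gave 0 to 6 genes at 24 h (0 to 3 higher, 0 to 3 lower, 0 to 1 past the limit), 0 to 4 at 4 h, 0 to 62 in the contrast, 0 to 6 between the lines, 0 to 279 in MKN7, 919 to 2974 at an unadjusted p below 0.05, and 5 to 9 MAPK (8 to 17 in the contrast) and 7 to 12 FOXO target genes. The log2FC of LINC00486 was -0.57 without replicate 3 and 7.05 without replicate 2. The 12 libraries of 24 h gave 5 (2 lower, 1 past the limit) and the 6 compared libraries 2 (0 higher, 2 lower, 0 past the limit).

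DESeq2 called 156 at 24 h (74 higher, 82 lower, 1 past the limit), 73 at 4 h, 239 in the contrast, 4 between trastuzumab alone and on afatinib, 20 between the lines and 172 in MKN7, and gave 7 MAPK target genes. No filter gave 470 (217 higher, 253 lower, 12 past the limit), 176 at 4 h, 312 in the contrast, 11 on afatinib, 184 between alone and on afatinib, 90 between the lines and 440 in MKN7. At least 10 counts in every library gave 0 past the limit and 7 MAPK target genes. Library size alone gave 7 higher and 2 lower genes at 24 h, 21 in the contrast and 1 in MKN7, and moved the median log2FC at 24 h from -0.01 to 0.02 and that of the contrast from -0.01 to 0.06. The cause of these shifts was not tested. Single genes were followed in 8 alternatives: no block, DESeq2, library size alone, each replicate left out, and the 12 and the 6 libraries. HAS2 passed the test in 5, BMF and LINC00486 in 4, FGD3 in 3, WNT9A in 2 and SEMA3C and DUSP4 in 1, and MS4A8 in 1 of 7. HAS2, WNT9A, SEMA3C, DUSP4, BMF, FGD3 and MS4A8 kept their direction in those. Of the 8 calls, no filter kept 8, at least 10 counts in every library 5, and 1 block for both time points 4. The counts of MAPK and FOXO target genes and of genes at an unadjusted p were added as results after seeing the data. With 3 libraries a group and depths near 0.06 CPM for 3 counts, MS4A8 is at the limit of what can be shown.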
